A study of Homo sapiens with 6 samples.

Results

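The long arm of chromosome 17, from 47 Mb on the GRCh38 assembly to its end, holds a run of expressed genes whose levels were compared between a mutant HCT116 line and its parent. HCT116 is an established human colorectal carcinoma cell line. The 6 Affymetrix whole-transcript arrays are 3 of a derived HCT116 mutant line with altered DNA methylation and 3 of parental HCT116. Both lines were grown in McCoy's 5A medium with serum and antibiotics. Which gene is mutated is not stated. Separate cultures or clones behind the 3 arrays of a line are not recorded either, so the tests measure only the spread between these arrays, which may be technical.

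Members were chosen by position and level. A gene was kept if its RefSeq start on chromosome 17 lay at or above 47 Mb, if a probe set named it alone, and if the mean log2 value of its brightest such probe set over the 6 arrays was at least 7. Of 18417 genes with a probe set of their own, 413 lay in the stretch and 299 of these reached that level. RNF43, TK1, BIRC5, ABCC3 and the HOXB, SOX, ITG, COL and ZNF genes were left out by name, which removed 17 and left 282 members. Of the members, 269 are annotated as protein-coding and 13 are pseudogenes or noncoding RNA genes. The stretch itself was singled out because its mutant and parental values differed in these arrays. Every mutant minus parental value below is therefore a description of that choice, and none of them is a test of it.

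Genes of one chromosome arm share a DNA molecule, and in carcinoma cells whole arms or large segments are often present in more or fewer copies than in normal cells. The RNA of many genes in such a segment follows the number of copies, while other genes are buffered or set by their own promoters. Dense methylation of the CG dinucleotides in a promoter usually goes with silence of its gene. The DNA copy number and the methylation of these lines were not analysed here, and their part in the values below was not tested.

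Distal 17q genes sat lower in the mutant line along the whole stretch. The median difference over the 282 members was -0.33 on the log2 scale, a level of 79.4% of the parental one. In bulk RNA, fewer cells with a transcript and less RNA per cell cannot be told apart. The same median was 0.03 over 10496 genes of other chromosomes with a mean of at least 7, and 0.04 over the 410 genes of chromosome 17 that start below 47 Mb and pass the same filters. The lower and upper quartiles of the members were -0.52 and -0.12, and 248 of the 282 had a difference below 0. Most differences were small, since 11 members were at least 2-fold lower and 53 at least 1.5-fold lower, and 0 were at least 1.5-fold higher.

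By limma, with p-values adjusted over all 33297 probe sets and a threshold of 0.05, 178 members were called lower, 3 were called higher and 101 were not called. These are 63.1% of the members called lower and 1.06% called higher, while over all probe sets 8.17% were called lower, 10.4% higher and 18.5% in either direction. Among the comparison genes of other chromosomes 14.5% were called lower and 21.4% higher, and among those of chromosome 17 below 47 Mb 10.0% and 20.2%. The 3 mutant and 3 parental arrays did not overlap for 228 members, with the mutant arrays all below for 214 and all above for 14. Over all probe sets 35.6% did not overlap, with 16.5% lower and 19.1% higher in the mutant. Since the stretch was picked on this contrast, the excess over those shares adds nothing to it.

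The shift was present in each mutant array. Taken against the mean of the parental arrays, the median member stood at -0.37, -0.32 and -0.30 in mutant replicates 1, 2 and 3, and at -0.02, 0.01 and 0.02 in parental replicates 1, 2 and 3. Over the members, the mutant arrays lay apart from the parental ones by far more than arrays of a line lay apart from each other. The stretch was chosen on this contrast, so the gap adds nothing to that choice. Parental medians near 0 are partly built in, since the parental mean is the reference. For the genes of other chromosomes the same medians were 0.01, 0.03 and 0.05 in the mutant arrays and -0.03, 0.00 and 0.02 in the parental arrays.

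**Figure D1:**
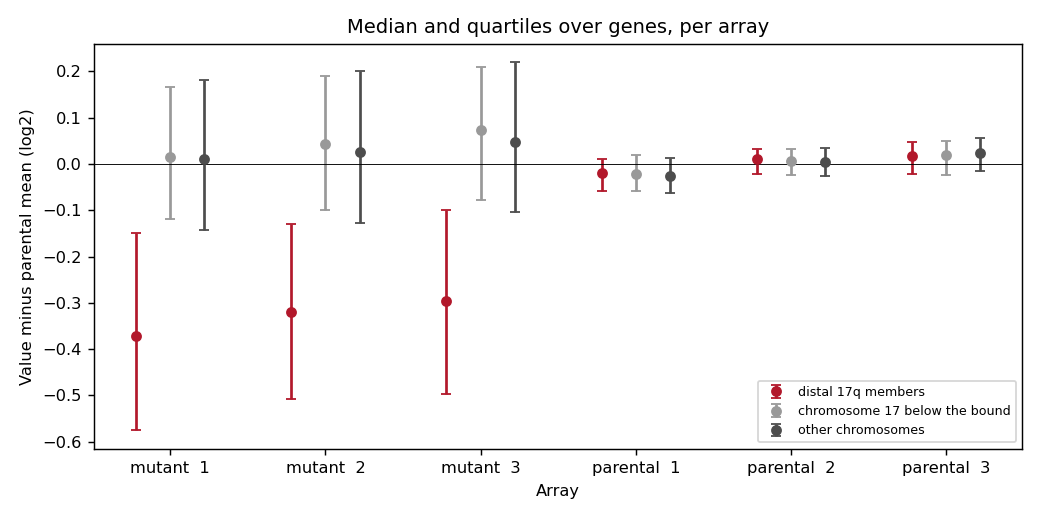
Value minus the parental mean (log2, vertical axis) in each of the 3 mutant and 3 parental arrays; points are medians and bars the lower and upper quartiles over the 282 distal 17q members, the 410 genes of chromosome 17 starting below 47 Mb and the 10496 genes of other chromosomes. The member medians are -0.37, -0.32 and -0.30 in the mutant arrays and between -0.02 and 0.02 in the parental arrays.

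Read in chromosome order, the members formed 14 consecutive blocks of 20, the last with 22, and every block had a median below 0. The lowest median was -0.50 in the third block, from TOB1 to VEZF1, in which 15 of 20 genes were called lower. The second block, SLC35B1 to LUC7L3, had -0.44, and the first, CDC27 to SPOP, had -0.35 with all 20 genes below 0. The medians nearest 0 were -0.16 from RNF213-AS1 to CCDC137, -0.19 from HEATR6 to DDX42 and -0.19 from TMC8 to RNF213. The block with -0.16 was also the dimmest, with a median level of 7.91 on the log2 scale, whereas the other blocks had median levels of 8.63 to 10.35. Towards the end of the arm the medians were -0.39 for both the block from HGS to RAC3 and the block from DCXR to METRNL.

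The longest run of neighbours that were all called lower held 12 members, from ARMC7 to LLGL2. The longest run with differences below 0 held 31 members, from FAAP100 to CSNK1D. Breaks in the pattern were short, since no more than 6 members in a row were not called lower, the longest such stretch running from SLC38A10 to FSCN2.

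**Figure D2:**
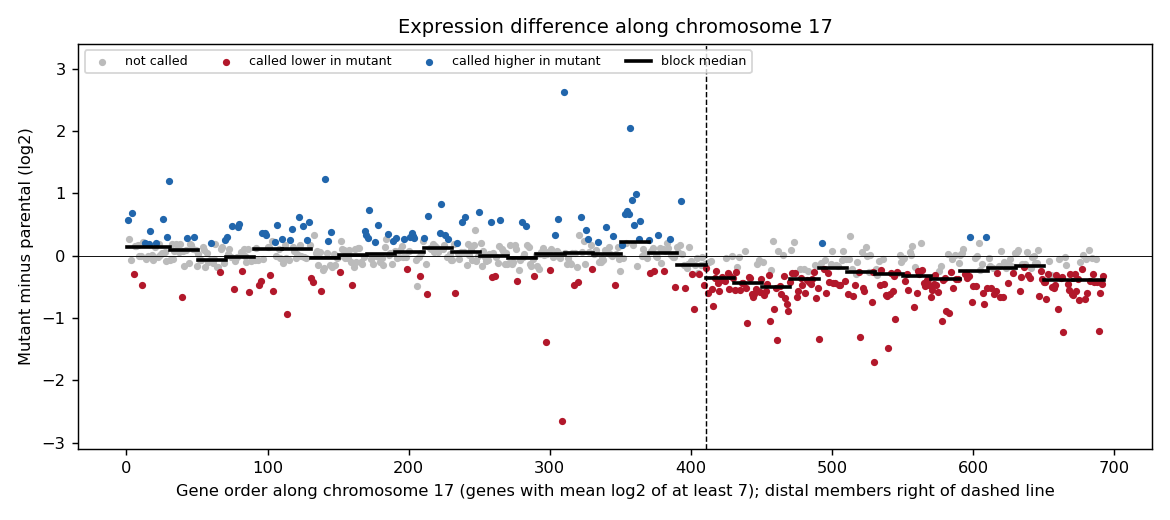
Mutant minus parental difference (log2, vertical axis) of each gene in its order along chromosome 17 (horizontal axis), with the 410 genes starting below 47 Mb left of the dashed line and the 282 members right of it; colours give the limma call and black lines the medians of consecutive blocks. Block medians right of the line run from -0.50 to -0.16, and those left of it from -0.14 to 0.22.

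The 47 Mb bound did not mark a sharp edge. Just inside it, CDC27 differed by -0.20, NPEPPS by -0.60, KPNB1 by -0.11, TBKBP1 by -0.08 and OSBPL7 by -0.54. Just outside it, the kept genes nearest the bound were KANSL1 with -0.29, NSF with -0.15, WNT3 with -0.01, GOSR2 with -0.47 and RPRML with -0.13. The last 20 kept genes before the bound had a median of -0.14 and 5 called lower, against medians of 0.05 and 0.22 in the blocks of 20 before them. At the level bound, the members just above a mean of 7 were DGKE with -1.35, RNF213-AS1 with 0.07 and TAC4 with -0.01. The genes just below it were TMEM105 with 0.04, SGCA with 0.01 and WFIKKN2 with -0.18. DGKE passed this bound only through its higher parental arrays.

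The size of the difference went with the level of the gene, mostly through the dimmest members. The 64 members with a mean log2 of 7 to 8 had a median of -0.08, and 15 of them were called lower. The 70 members between 8 and 9 had -0.35, the 56 between 9 and 10 had -0.38, and the 92 at 10 or above had -0.41, of which 73 were called lower. Genes of other chromosomes stayed between 0.01 and 0.04 in the same level ranges. Having no common shift, those genes cannot show whether differences of dim genes were compressed, and this was not tested. Below the filter, the 114 genes of the stretch with a mean under 7 had a median of -0.04, with 8 called lower and 3 called higher, which is 7.02% and 2.63% of them.

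**Figure D3:**
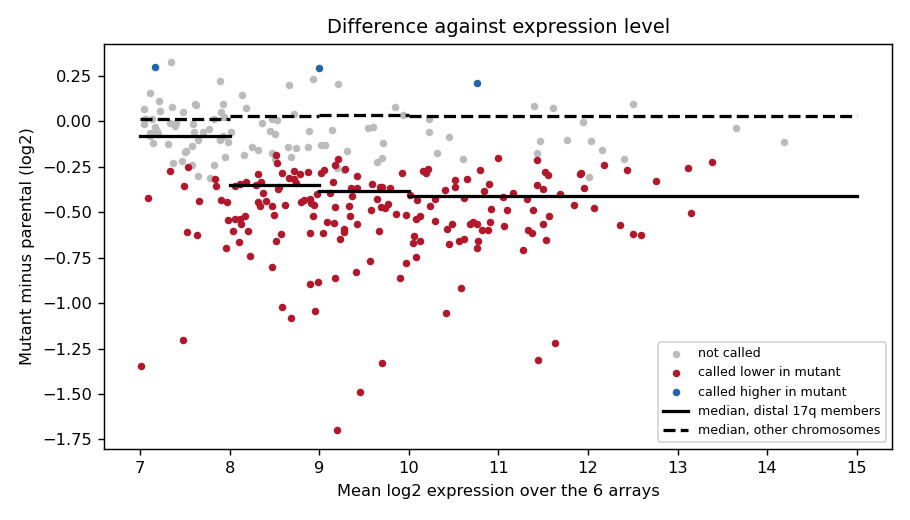
Mutant minus parental difference (log2, vertical axis) of the 282 members against their mean log2 level over the 6 arrays (horizontal axis), coloured by limma call; solid lines are the members' medians by level range and dashed lines those of genes of other chromosomes. The members' medians are -0.08 at levels of 7 to 8 and -0.35 to -0.41 above 8.

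The largest decreases went well beyond the common shift. PITPNC1, a phosphatidylinositol transfer protein of the class that also carries phosphatidic acid, had log2 levels of 8.33, 8.41 and 8.31 in the mutant arrays, against 10.05, 9.98 and 10.13 in the parental arrays. Its groups were far apart, with a difference of -1.70 ± 0.06 (SE, n = 3 each). WIPI1, which binds phosphatidylinositol 3-phosphate where autophagosomes form, stood at 8.71, 8.66 and 8.78 in mutant arrays and at 10.09, 10.18 and 10.34 in parental arrays. Its difference was -1.49 ± 0.08 (SE, n = 3 each), and it lies near PITPNC1 along the arm. DGKE, a kinase that turns diacylglycerol into phosphatidic acid, was dimmer, at 6.26, 6.51 and 6.23 in mutant arrays and 7.55, 7.63 and 7.87 in parental arrays. The difference of DGKE was -1.35 ± 0.12 (SE, n = 3 each). Its mean over the 6 arrays was 7.01 and its mutant arrays lay below 7, so only its parental arrays carried it past the filter.

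SMURF2, a HECT ubiquitin ligase that acts on SMAD proteins and TGF-beta receptors, was bright in both lines, with 10.81, 10.76 and 10.78 in mutant arrays and 12.04, 12.10 and 12.14 in parental arrays. PYCR1, the enzyme of the last step of proline synthesis in mitochondria, averaged 11.02 ± 0.02 in mutant arrays and 12.24 ± 0.02 in parental arrays (log2, SD, n = 3 each). The arrays of each line agreed closely for both genes, and the differences were -1.31 ± 0.05 for SMURF2 and -1.22 ± 0.04 for PYCR1 (SE, n = 3 each). HEATR6, a HEAT repeat protein, averaged 9.03 ± 0.01 in mutant arrays and 10.36 ± 0.11 in parental arrays (log2, SD, n = 3 each). FN3K, a kinase that removes sugar adducts from proteins, averaged 6.87 ± 0.07 in mutant arrays and 8.08 ± 0.10 in parental arrays (log2, SD, n = 3 each). The mutant mean of FN3K lay below the level bound of 7, so its parental arrays carried it past the filter. Its neighbour FN3KRP, a related kinase, differed by only -0.42, so adjoining genes of one family differed by unequal amounts.

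The other members of the 10 largest called decreases were XYLT2 at -1.08, TOM1L1 at -1.05 and SAP30BP at -1.04. XYLT2 starts the sugar chains of proteoglycans, TOM1L1 is an adaptor of endosomal sorting, and SAP30BP is a binding partner of the repressor subunit SAP30. A second probe set of TOM1L1, far dimmer with a mean of 6.81 against 10.42, gave -0.25 and was not called. CDC42EP4, an effector of the GTPase CDC42, came next with -1.02 and was the last member to pass a 2-fold decrease. It was named after its values were seen.

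Increases were few and small. Each of the 3 members called higher was named after its values were seen as well. PPM1D, a phosphatase that switches off p53 and checkpoint signalling, had 10.83, 10.88 and 10.88 in mutant arrays and 10.64, 10.66 and 10.65 in parental arrays. The difference of PPM1D was 0.21 ± 0.05 (SE, n = 3 each). TNRC6C, a partner of Argonaute proteins in microRNA silencing, had 9.08, 9.16 and 9.20 in mutant arrays and 8.86, 8.81 and 8.88 in parental arrays, a difference of 0.29 ± 0.05 (SE, n = 3 each). CYGB, the globin cytoglobin, differed by 0.30 ± 0.06 (SE, n = 3 each), with all mutant arrays above all parental ones but close to the level bound, at means of 7.32 and 7.02. The highest value of all, 0.32 for the sodium channel gene SCN4A, was not called. Each of these calls was lost on leaving out a single array. The call of TNRC6C was lost without mutant replicate 2 or parental replicate 2, that of PPM1D without any one array but mutant replicate 1, and that of CYGB without any one array but mutant replicate 2. Without parental replicate 2, 0 members were called higher, and without mutant replicate 2, mutant replicate 3 or parental replicate 1, 1 was.

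**Figure D4:**
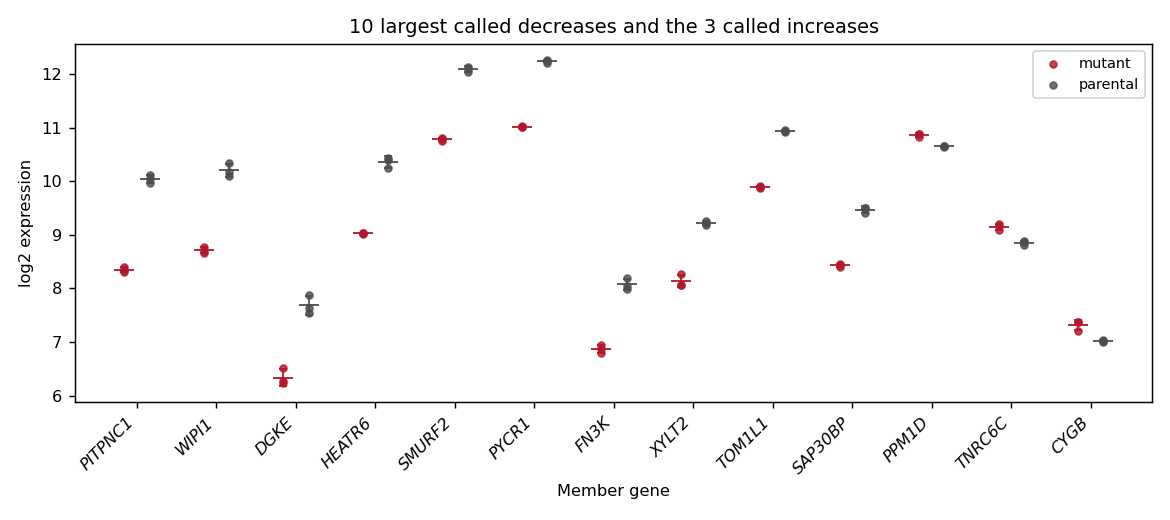
Log2 expression (vertical axis) of the 10 members with the largest called decrease and the 3 called higher (horizontal axis) in 3 mutant and 3 parental arrays; dots are arrays, dashes means and bars SD. The groups do not overlap in any of these genes, and PITPNC1 has means of 8.35 in mutant and 10.05 in parental arrays.

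The promoters of the most changed members were read for the sequence feature that DNA methylation acts on. Of the 282 members, 208 matched a RefSeq promoter window of GRCh38.p14, and the 250 bases before each gene's start were used. The windows of the members with the largest called decrease, PITPNC1 and WIPI1, and of the member with the largest called increase that has a window, TNRC6C, are shown 5′ to 3′ on the strand of the gene, with CG dinucleotides in capitals. They lie at chr17:67377031-67377280 on the plus strand for PITPNC1, at chr17:68457497-68457746 on the minus strand for WIPI1 and at chr17:77957307-77957556 on the plus strand for TNRC6C.
PITPNC1: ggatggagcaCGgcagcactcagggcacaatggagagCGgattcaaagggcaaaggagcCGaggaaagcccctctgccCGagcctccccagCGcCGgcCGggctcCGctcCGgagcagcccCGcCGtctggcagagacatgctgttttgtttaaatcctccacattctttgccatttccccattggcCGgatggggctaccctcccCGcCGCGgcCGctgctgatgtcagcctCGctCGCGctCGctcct
WIPI1: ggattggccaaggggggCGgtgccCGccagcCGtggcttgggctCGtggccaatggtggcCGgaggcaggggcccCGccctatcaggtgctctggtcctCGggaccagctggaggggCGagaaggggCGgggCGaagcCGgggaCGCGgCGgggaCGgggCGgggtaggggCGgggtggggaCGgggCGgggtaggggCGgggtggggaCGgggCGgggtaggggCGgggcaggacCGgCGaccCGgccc
TNRC6C: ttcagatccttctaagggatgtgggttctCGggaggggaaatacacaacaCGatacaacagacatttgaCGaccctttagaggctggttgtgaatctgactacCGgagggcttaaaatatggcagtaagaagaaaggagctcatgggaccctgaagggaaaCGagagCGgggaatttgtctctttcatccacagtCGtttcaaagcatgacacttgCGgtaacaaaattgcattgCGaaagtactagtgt

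The windows hold 20 CG dinucleotides for PITPNC1, 26 for WIPI1 and 9 for TNRC6C. Only 2 members called higher have a window, with a median of 21, and 1 of them holds at least 10. The low count of TNRC6C is thus not a trait of the members called higher. Over members called lower the median was 22 in 145 windows, over members not called it was 22 in 61 windows, and over genes of other chromosomes with a mean of at least 7 it was 22 in 8526 windows. At least 10 CG dinucleotides were found in 92.4% of the windows of members called lower, in 85.2% of those not called and in 87.2% of those of other chromosomes. CG was searched as the letters CG, which read the same on both strands. Across the 208 members, which share the same arrays, the count of CG dinucleotides and the difference had a Pearson correlation of -0.10 and a Spearman correlation of -0.08, given as a description. The median count was thus the same in members called lower, in members not called and in genes of other chromosomes.

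Mitochondrial ribosomal proteins, which translate the messages of mitochondrial DNA, were lower without exception among the members. This group and those below are lists that together hold 150 of the 282 members, and some members stand in several lists. A member outside a list can still share its function. Counts of this group and those below stand beside 63.1% called lower, 1.06% called higher and a median of -0.33 over all 282 members. A group near these values shows no more than the stretch as a whole. The 7 members of this group, MRPL10, MRPL12, MRPL27, MRPL38, MRPL58, MRPS7 and MRPS23, were all called lower, with a median of -0.60 and a range of -0.80 to -0.34. MRPL10 averaged 8.07 ± 0.07 in mutant arrays and 8.87 ± 0.08 in parental arrays (log2, SD, n = 3 each). MRPS23 had 9.13, 9.26 and 9.15 in mutant arrays and 9.95, 9.97 and 9.93 in parental arrays, so neither gene's groups overlapped. The 64 listed mitochondrial ribosomal genes encoded elsewhere had a median of 0.00, with 5 called lower and 9 called higher.

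Subunits of other complexes were also lower among the members, in smaller numbers. CDC27 and ANAPC11, subunits of the anaphase-promoting complex that marks mitotic regulators for destruction, differed by -0.20 and -0.31 and were both called lower. Of 12 listed subunits encoded elsewhere, 7 were called higher and 1 lower, with a median of 0.29. GPS1, the first subunit of the COP9 signalosome, which removes NEDD8 from cullin ligases, differed by -0.57, while 8 listed partners had a median of 0.04 with 2 higher and 1 lower. PSMD12, a lid subunit of the 26S proteasome, differed by -0.27, and 25 listed subunits encoded elsewhere, not the whole complex, had a median of 0.05 with 3 higher and 0 lower. The call of CDC27 was lost without any one of 5 arrays, mutant replicate 3 being the exception, and that of PSMD12 without mutant replicate 2 or parental replicate 2.

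Genes of energy production were mixed. ATP5PD, a stalk subunit of ATP synthase, was called lower at -0.29, but ATP5MC1, which encodes its membrane ring, was not called at -0.03, nor was the copper chaperone COX11 at -0.23. The 12 listed ATP synthase genes encoded elsewhere had a median of 0.04 with 2 called lower. Of 8 other mitochondrial proteins 7 were called lower, among them PYCR1, the prohibitin PHB1 at -0.33, the scaffold AKAP1 at -0.32, the pyruvate dehydrogenase kinase PDK2 at -0.43 and the dicarboxylate carrier SLC25A10 at -0.29.

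**Figure D5:**
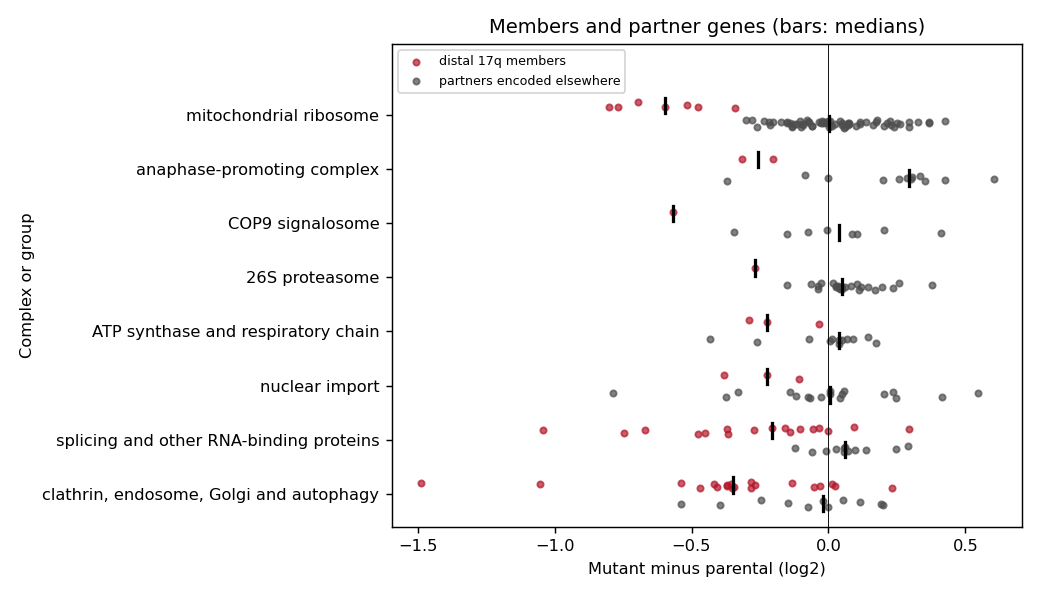
Mutant minus parental difference (log2, horizontal axis) of distal 17q members and of the listed partner genes encoded elsewhere, by complex or group (vertical axis); dots are genes and black bars medians. The 7 mitochondrial ribosomal members have a median of -0.60 and their 64 partners 0.00.

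The list for lipid, sugar and nucleotide metabolism had the lowest median of the groups with more than 10 members, with 15 of 18 called lower, 0 higher and a median of -0.59. It includes the transfer protein PITPNC1 and also PYCR1 of proline synthesis, which was counted with the mitochondrial proteins too. The lipid kinase DGKE, at -1.35, is not in it. FASN, the fatty acid synthase, had 10.89, 10.89 and 10.99 in mutant arrays and 11.68, 11.59 and 11.61 in parental arrays, a difference of -0.71 ± 0.05 (SE, n = 3 each). PCYT2, which makes the activated ethanolamine of phospholipid synthesis, differed by -0.86. The sialyltransferase ST6GALNAC2 differed by -0.74 and the mitochondrial acyl-CoA synthetase ACSF2 by -0.67. The xylulose reductase DCXR differed by -0.63, and GALK1, which phosphorylates galactose, by -0.39. Of 5 lysosomal enzymes 3 were called lower, with the sulfatase ARSG at -0.63, whereas the glycogen-degrading GAA was not called at -0.05.

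The list of membrane traffic genes, which does not cover every such member, held 20 genes. Of these 14 were called lower and 0 higher, with a median of -0.35. This is close to the whole stretch, where 63.1% of members were called lower and the median was -0.33. Besides WIPI1 and TOM1L1 they included CLTC, the clathrin heavy chain, at -0.37, the ESCRT subunits SNF8 at -0.54 and CHMP6 at -0.35, and the ESCRT-0 subunit HGS at -0.42. The 6 not called included the exocyst subunit EXOC7 at 0.01, the priming factor UNC13D at 0.02 and STXBP4 at 0.23. The 11 partner genes elsewhere, which encode clathrin light chains, AP2 subunits and Golgi tether subunits, had a median of -0.02 with 3 lower and 1 higher.

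Kinases and signalling adaptors had 10 of 15 called lower and 0 higher, with a median of -0.47. The share called lower was near the 63.1% of all members. RPS6KB1, the S6 kinase downstream of mTOR, had 10.08, 10.14 and 10.12 in mutant arrays and 10.77, 10.73 and 10.86 in parental arrays. RPTOR, the mTOR partner that selects its substrates, differed by -0.57, and GRB2, the adaptor that links growth factor receptors to RAS, by -0.55. PRKAR1A, a regulatory subunit of protein kinase A, differed by -0.65 and SOCS3, a feedback inhibitor of cytokine receptors, by -0.61. TLK2 at 0.08, STRADA at 0.07 and AXIN2, a scaffold and target of WNT signalling, at 0.14 were not called. Of the 4 mTOR pathway partners encoded elsewhere with a mean of at least 7, 0 were called.

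The list of ubiquitin ligases and proteases had 9 of 14 called lower, 0 higher and a median of -0.25. It does not hold the ligase SMURF2, which was called lower at -1.31. Here too the share called lower was near the 63.1% of all members. The RING finger protein RNFT1 differed by -0.52, TRIM37 by -0.46 and SPOP, a cullin adaptor, by -0.36. The 5 not called were DCAF7 at -0.17, USP36 at -0.16, TRIM65 at -0.05, RNF213 at 0.04 and TRIM25 at 0.08, and a second probe set of RNF213 gave 0.06.

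Of 17 chromatin and transcription regulators 9 were called lower and 1, PPM1D, higher, with a median of -0.29. All members together had 63.1% called lower and a median of -0.33. SUPT4H1, an elongation factor subunit, differed by -0.66, the Mediator kinase module subunit MED13 by -0.43, the heterochromatin protein CBX1 by -0.35 and the histone gene H3-3B, whose close copies can share probes, by -0.35. The chromatin reader BPTF at -0.08, KAT7 at -0.17 and the Polycomb protein CBX2 at -0.14 were not called. Of 14 listed genes of DNA repair, centrosome and spindle 7 were lower and 1, PPM1D again, higher, with a median of -0.27. The list is not complete, since FAAP100 at -0.65, CENPX at -0.55 and LRRC45 at -0.29, all called lower, are not in it. These genes were named after their values were seen. The helicase BRIP1 differed by -0.60 and RAD51C, a recombination protein, by -0.36.

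Splicing factors and other RNA-binding proteins had the median nearest 0 of the groups with more than 3 members, -0.21, with 8 of 17 called lower and 1, TNRC6C, higher. SRSF2, an SR protein of exon choice, had 11.90, 11.96 and 11.96 in mutant arrays and 11.93, 11.93 and 11.96 in parental arrays, so its groups overlapped. SRSF1, the founding SR protein, averaged 12.55 ± 0.02 in mutant arrays and 12.45 ± 0.05 in parental arrays (log2, SD, n = 3 each) and was not called. The RNA helicases DDX5 at -0.10 and DDX42 at -0.06 and the exon junction helicase EIF4A3 at -0.16 were not called either. The RNA-binding protein MSI2 at -0.67, the helicase HELZ at -0.75 and the export adaptor ALYREF at -0.47 were called lower. The 12 partner genes elsewhere had a median of 0.06, with 1 called higher.

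Nuclear import was represented by 3 members. The importin KPNA2 at -0.22 and the nuclear pore subunit NUP85 at -0.38 were called lower, and KPNB1, the importin beta that carries most cargo, was not called at -0.11. Of 18 listed import and export genes encoded elsewhere 3 were lower and 4 higher, with a median of 0.01.

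Genes of cytoskeleton, polarity and matrix had 10 of 13 called lower and 0 higher, with a median of -0.44. SEPTIN9, a filament-forming GTPase, had 9.56, 9.59 and 9.58 in mutant arrays and 10.35, 10.35 and 10.36 in parental arrays, a difference of -0.78 ± 0.04 (SE, n = 3 each). The metalloproteinase inhibitor TIMP2 differed by -0.66 and the polarity protein LLGL2 by -0.59. ACTG1, the cytoplasmic gamma actin whose sequence is close to that of other actins, was the brightest member at means of 14.13 and 14.24 in mutant and parental arrays, and its difference of -0.11 was not called although its arrays did not overlap.

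The 13 noncoding members had a median of -0.02, and the 269 protein-coding members -0.35. Most of the 13 had a mean log2 below 8, where members of all kinds had a median of -0.08, and the classes were not compared by a test. The small RNA genes SNORD104 at -0.65 and SCARNA16 at -0.60 and the pseudogene AMZ2P1 at -0.52, which can share probes with AMZ2, were called lower. A further 20 probe sets carry the symbols of 15 members, but 2 of them, for NPB and ST6GALNAC2, hold the same values as the chosen probe set. Of the other 18, which belong to 13 members, 13 were called lower and 0 higher, and none was called against the chosen probe set. SKA2, a kinetochore protein, was called on its second probe set at -0.37 but not on the chosen one at -0.21.

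Arrays of one line correlated at 0.995 to 0.996 across probe sets and arrays of different lines at 0.988 to 0.989. Of 8 colon epithelial markers 6 had a mean of at least 7 in each line, led by EPCAM and the keratins KRT8, KRT18 and KRT19, while VIL1 and CEACAM5 lay below that level. KRT8, KRT18, KRT19 and CDH1 were called lower in the mutant line. None of 4 endothelial and 5 fibroblast markers reached it, and of these only PDGFRB was called, higher at 6.33 in mutant and 6.06 in parental arrays. Of the 4 leukocyte markers measured only CD68, which is not restricted to leukocytes, did, at 9.33 in mutant and 9.19 in parental arrays.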

How the data were processed

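The deposited values are log2 expression per probe set and array, and the submitters' processing notes name RMA (robust multi-array average) and Partek for the authors' work. Their versions, and the build behind the probe annotation, were not given in the labels used here. RMA makes the distributions of all arrays alike, so a difference in total RNA per cell is removed, and it compresses dim differences. The 33297 probe sets were used as deposited; array medians lay between 6.88 and 6.93. In the platform annotation 19460 probe sets have 1 symbol, 1754 several and 12083 none; 19429 single-symbol probe sets matched the RefSeq gene table of GRCh38.p14, used for chromosome and order. Of the members, 2 have values identical to another probe set.

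Mutant minus parental differences were fitted per probe set with limma 3.58.1 in R 4.3.3 (lmFit, eBayes, two-sided), adjusted by Benjamini-Hochberg over all probe sets; 4 residual degrees of freedom were joined by 2.16 from the prior. The fit was also run on simulated data with independent noise and few changed probe sets. That setting is unlike these data, so it does not vouch for the calls given here. Further steps used Python 3.11.15 with pandas 2.3.3. Arrays have no sequencing depth, and the number of arrays limits precision. Members, gene lists and alternatives were chosen with earlier results of these data known, and the lists were edited for gene function after the differences had been seen. They are incomplete, so members with a given function can be missing from its list. No set test was run. Named genes are the 10 largest called decreases and increases of at least 1.5-fold (0 increases met this) and the genes at the bounds. They also take in the largest called change of each list in each direction, the first and last member, and the members of the lists; genes outside this are said to be chosen after their values were seen or are named for their place in a block or run, their kind of gene or a second probe set.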

Additional observations from a re-analysis of the deposited data

How the results depend on the processing

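Renormalization, array medians, averaging over a gene's probe sets, the omission of dim probe sets and an intensity trend left 172 to 195 members called lower. The sign of the median did not change in any alternative. A minimum fold of 1.2 in the test, which is stricter by construction, gave 68 members lower, 0 higher and 1743 probe sets called. Other bounds changed the members themselves. A start of 50 Mb, which keeps fewer members, gave 159 lower and a median of -0.32. A mean of at least 6 gave a median of -0.27 and 5 members higher, and a mean of at least 8 a median of -0.38. Members called higher numbered 7 with dim probe sets left out, 6 with an intensity trend and 1 with the replicate number as a block. That replicate block gave 147 members lower and 4365 probe sets called; the same-numbered arrays did not deviate together (correlations of 0.04, -0.01 and 0.00), so the numbers are not taken as pairs. With each single array omitted there were 138 to 158 members lower, 0 to 2 higher, median differences of -0.36 to -0.31, 234 to 242 members without overlap, and 4037 probe sets (without mutant replicate 2) to 4644. Of the 178 members called lower, 130 kept the call with each array left out and 178 stayed below 0. Single genes were followed for 41 (the largest decreases, the largest called change of each list, those called higher, those at the bounds and the ends), not for the other list members named. Of the 31 called among them, 19 kept the call under every alternative and 12 lost it under at least 1; 0 reversed.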
